A study of Mus musculus with 6 samples.

Results

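The xenobiotic metabolism genes described here are 41 named mouse genes that act on drugs, dietary plant chemicals and other foreign compounds. They were chosen by name: 15 cytochromes P450 with their reductase Por, a group of 7 made up of hydrolases and the quinone reductase Nqo1, 8 glutathione transferases, 4 glucuronosyl and sulfo transferases, 3 efflux pumps and 3 receptors. All 41 are among the 54446 genes of the count table. All 41 also passed the filter on low counts that left 15068 genes for testing.

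RNA was sequenced from epithelium released from 10 cm segments of mouse small intestine, which the sample titles call jejunum and the series text calls jejunum and ileum. Knockout mice (n = 3) carried Prkci flox/flox together with Villin-Cre, and control mice (n = 3) carried Prkci flox/flox alone. Prkci encodes the atypical protein kinase C iota/lambda, and the Villin promoter drives Cre in the intestinal epithelium, so other cell types of the gut wall keep the gene. All mice were 3 to 4 months old and co-housed, and each library is 1 animal.

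Total counts were 18972906 to 26687856 in the knockout libraries and 22453798 to 23008047 in the control libraries. Prkci itself had 21.5, 14.6 and 21.4 CPM (counts per 1e6 counts of the scaled library total) in knockouts 1 to 3, against 44.6, 46.9 and 44.0 CPM in controls 1 to 3, and the groups did not overlap. Its log2 fold change was -1.24 (SE 0.17), with an adjusted p of 0.0719 by edgeR's quasi-likelihood test with Benjamini-Hochberg adjustment. On the first principal component of all genes tested, which held 54.7% of the variance, knockout 1 lay at -21.9, between knockouts 2 and 3 at 68.0 and 50.9 and the controls at -33.3, -33.3 and -30.4. The counts, the group levels and the genes that knockout 1 moved most are therefore given with and without it. Xist and Ddx3y counts marked knockouts 2 and 3 and control 3 as female, which goes against the series text for knockout 3, control 2 and control 3. By these counts the fit without knockout 1 compares female knockouts with controls of both sexes. Sex and genotype are therefore partly mixed in that fit.

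The small intestine is the first tissue that swallowed compounds meet, and its absorptive cells hold a detoxification chain. Cytochromes P450, which take electrons from the reductase Por, and hydrolases add or uncover a reactive group on the compound. Transferases then attach glutathione, glucuronic acid or sulfate, and apical pumps send the products back to the lumen. The receptors PXR (Nr1i2), CAR (Nr1i3) and AhR (Ahr) bind foreign and dietary ligands and switch on many of these genes.

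Promoters of 3 of the genes are shown because Cyp2j6 and Ces2a were the pair whose knockout and control values did not overlap, and Cyp1a1 is the classical target of AhR. They are RefSeq sequences of the GRCm38.p6 build, from 250 bases before the annotated start to 50 bases after it, 5′ to 3′ on the strand of the gene. Capitals mark a match on either strand to GCGTG, the core that AhR and its partner Arnt bind, or to TGACNNNGC, the core of the antioxidant element bound by NRF2.
Cyp2j6 (chr4:96553602-96553901, minus strand): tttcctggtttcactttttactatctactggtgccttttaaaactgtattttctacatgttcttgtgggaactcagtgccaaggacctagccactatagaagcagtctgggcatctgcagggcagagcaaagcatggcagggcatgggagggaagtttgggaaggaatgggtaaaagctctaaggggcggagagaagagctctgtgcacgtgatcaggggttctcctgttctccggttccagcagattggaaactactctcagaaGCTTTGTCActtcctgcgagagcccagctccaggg
Ces2a (chr8:104733753-104734052, plus strand): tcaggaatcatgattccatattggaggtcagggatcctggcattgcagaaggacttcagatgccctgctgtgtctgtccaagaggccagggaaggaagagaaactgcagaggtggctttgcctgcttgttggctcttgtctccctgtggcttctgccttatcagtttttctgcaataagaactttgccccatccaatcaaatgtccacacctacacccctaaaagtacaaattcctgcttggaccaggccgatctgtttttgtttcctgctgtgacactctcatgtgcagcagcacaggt
Cyp1a1 (chr9:57697363-57697662, plus strand): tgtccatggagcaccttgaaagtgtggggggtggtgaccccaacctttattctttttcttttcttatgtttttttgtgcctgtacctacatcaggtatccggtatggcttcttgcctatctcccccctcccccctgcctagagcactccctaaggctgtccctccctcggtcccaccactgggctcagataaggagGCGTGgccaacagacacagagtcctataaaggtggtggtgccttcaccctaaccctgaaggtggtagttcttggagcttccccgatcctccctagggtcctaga
The Cyp1a1 window held a GCGTG that began 54 bases before the start, the Cyp2j6 window held GCTTTGTCA, a TGACNNNGC read on the other strand, and the Ces2a window held neither. Of the 37 genes with a promoter entry, 11 held GCGTG (29.7%, against 35.2% of 27025 genes with an entry) and 7 held TGACNNNGC (18.9%, against 14.0%). Such matches describe the letters in these windows and not bound sites.

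The xenobiotic genes were split in direction. Of the 41, 0 passed an adjusted p of 0.05 in edgeR's quasi-likelihood test, in which 9 of all genes tested (0.0597%) passed. With the replicate number as a block in the fit, 0 of all genes tested (0.0%) passed. At an unadjusted p under 0.05 there were 2 of 41, Cyp2j6 and Ces2a, both lower in the knockouts, where 16.4% of all genes tested reached that level in either direction and 7.09% were lower. The same 2 genes were the ones whose knockout and control values did not overlap (2 of 41, against 21.8% of all genes tested). The fitted log2 fold changes ran from -1.20 (Ces2a) to 1.83 (Ephx1) with a median of -0.04, against a median of 0.01 over all genes tested. They were above 0 for 17 genes and below 0 for 24. That split depended on single libraries, with 25 above and 16 below without knockout 1 (median 0.06), the same 25 and 16 without control 1, and 11 and 30 with sex by Xist and Ddx3y as a term. The size was under 0.5 on the log2 scale for 35 of 41 (85.4%), close to the 87.8% of the 7335 genes with a mean at or above that of the least abundant xenobiotic gene. DESeq2's Wald test called Cyp2j6 and Ces2a, 2 of 41, where 5.25% of all genes with an adjusted p were called. edgeR without a filter on low counts called the same 2 of 41, where 1.01% of all genes were called. Without knockout 1, edgeR called 7 of 41, where 17.5% of the genes tested in that fit were called.

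**Figure D1:**
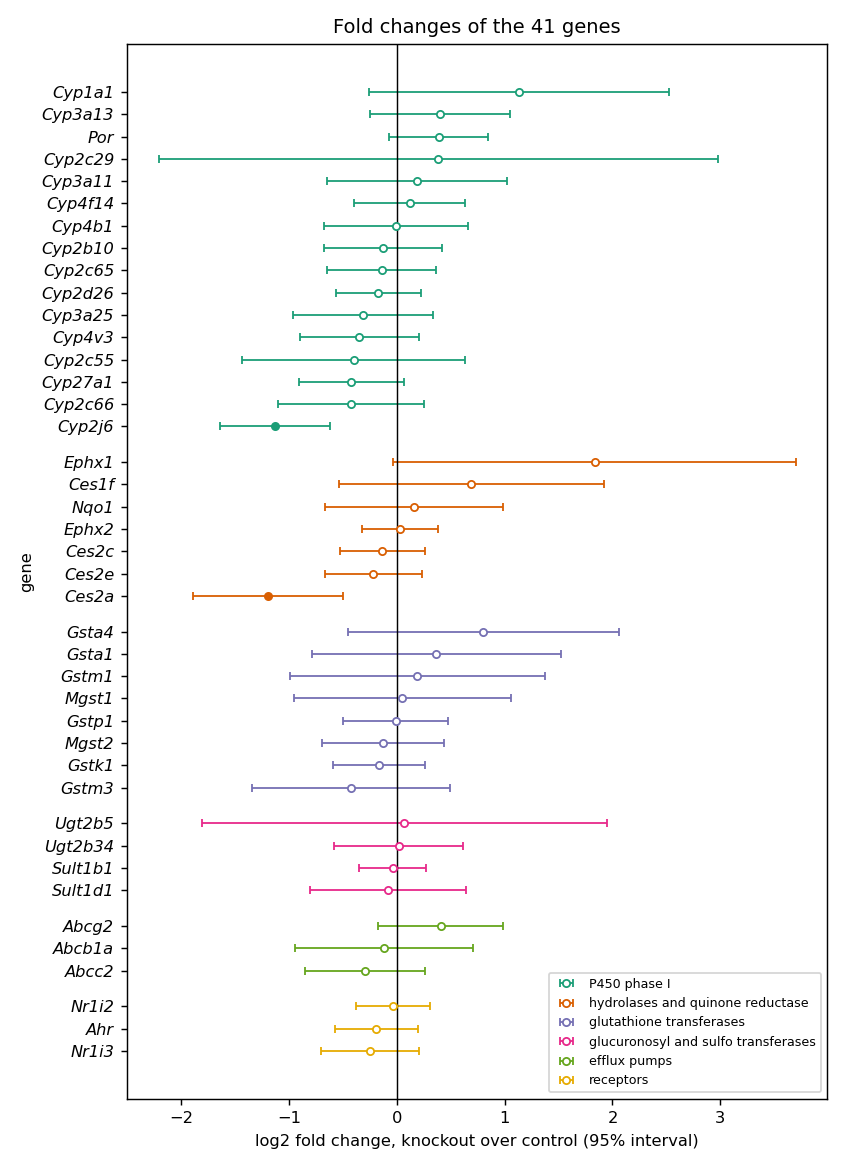
Log2 fold change, knockout over control, of the 41 genes (points) with 95% intervals from the quasi-likelihood fit (bars, n = 3 each), ordered within roles by colour; filled points have an unadjusted p under 0.05. The intervals of Cyp2j6 (-1.65 to -0.62) and Ces2a (-1.90 to -0.50) lie below 0, and those of the other 39 genes cross 0.

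The P450 enzymes of the small intestine spanned a wide range of levels. Per kilobase of exon, Cyp4f14, a fatty acid and leukotriene hydroxylase, was the most abundant of all 41 genes, at 518 ± 122 CPM per kb in knockouts and 477 ± 77.4 CPM per kb in controls (SD, n = 3 each). Cyp3a13 followed among the P450s with 450 ± 113 CPM per kb in knockouts and 340 ± 109 CPM per kb in controls, a gap from Cyp4f14 that was smaller than either SD in knockouts and larger than either SD in controls. Cyp3a11, a principal drug-oxidising P450 of the mouse, had 207 ± 75.7 CPM per kb in knockouts and 182 ± 73.1 CPM per kb in controls. Cyp1a1 was near the bottom of the order, at 8.18 ± 6.10 CPM per kb in knockouts and 3.73 ± 1.5 CPM per kb in controls.

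Cyp2j6, an intestinal P450 of a family that oxidises arachidonic acid and drugs, was the P450 among the 41 genes whose groups did not overlap. It had 111, 71.3 and 120.1 CPM in knockouts 1 to 3, against 225, 185 and 253 CPM in controls 1 to 3. The highest knockout was below the lowest control, and the means were 101 ± 26.0 CPM in knockouts and 221 ± 34.2 CPM in controls (SD, n = 3 each), a ratio of 0.456. The change of -1.13 on the log2 scale (SE 0.22) had an unadjusted p of 0.00117 and an adjusted p of 0.113 by edgeR, so it did not pass. DESeq2's Wald test gave an adjusted p of 0.000232 for the same counts, edgeR without a filter on low counts gave 0.0263, and edgeR without knockout 1 gave 0.0154. Over the 14 alternative fits the log2 fold change stayed between -1.27 and -0.92. Within the libraries that Xist and Ddx3y mark as male, knockout 1 had 111 CPM against 225 and 185 CPM in controls 1 and 2. Within those marked female, knockouts 2 and 3 had 71.3 and 120.1 CPM against 253 CPM in control 3. Only 0.422% of the 50-base words of its transcripts occur in other genes.

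Cyp1a1, which oxidises polycyclic aromatic compounds and is induced through AhR, had 19.4, 7.75 and 41.2 CPM in knockouts 1 to 3, against 13.4, 5.62 and 12.2 CPM in controls. Knockout 2 lay inside the control range while knockouts 1 and 3 lay above it. The log2 fold change of 1.13 (SE 0.59) had an unadjusted p of 0.0957 and an adjusted p of 0.384 by edgeR. The unadjusted p was 0.0347 with DESeq2's Wald test, 0.0320 with no filter, 0.0281 with the replicate block, 0.0200 with sex from the series text and 0.0108 without knockout 2, while the adjusted p over all alternatives was 0.216 to 0.804. Without knockout 3 the log2 fold change was 0.39. Of the 6 tested genes on a list of AhR targets, Cyp1a1 and Nqo1 included, 0 had an unadjusted p under 0.05 by edgeR, against 16.4% of all genes tested.

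Cyp3a11 had 681, 1450.4 and 1029 CPM in knockouts 1 to 3, against 1354, 682 and 741 CPM in controls, and both groups covered nearly the same span. Its log2 fold change was 0.19 (SE 0.35, 95% interval -0.65 to 1.02). Cyp4f14 had 914, 1439.8 and 1406 CPM in knockouts and 1366, 1011 and 1086 CPM in controls, with a log2 fold change of 0.12 (SE 0.22). Por, the electron donor of all microsomal P450s, had 228, 320.3 and 307 CPM in knockouts, against 266, 175 and 213 CPM in controls. Knockouts 2 and 3 lay above every control for Por, knockout 1 did not, and the log2 fold change was 0.39 (SE 0.20, 95% interval -0.08 to 0.85; adjusted p 0.375 by edgeR).

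The Cyp2c genes, whose products make epoxides and alcohols from fatty acids and drugs, varied widely between animals. Cyp2c29 had 33.0, 6.75 and 294 CPM in knockouts 1 to 3, against 107, 55.3 and 93.6 CPM in controls. Knockouts 1 and 2 lay below every control and knockout 3 above every control, a 43.5-fold range among the knockouts and a 1.93-fold range among the controls. The fitted log2 fold change of 0.38 (SE 1.10) became -2.10 without knockout 3 and -1.11 with the replicate number as a block. Cyp2c55 had 70.6, 233 and 114 CPM in knockouts and 258, 155 and 138 CPM in controls, with knockout 1 lowest. For Cyp2c55 the log2 fold change was -0.40 (SE 0.44), and -0.09 without knockout 1. Cyp2c65 and Cyp2c66 had log2 fold changes of -0.14 and -0.43, and 20.6% and 19.5% of their 50-base words occur in other genes, mostly in each other, so reads may be divided between them. Among the rest, Cyp2b10, a classical CAR target, Cyp2d26, Cyp3a13, Cyp3a25, Cyp4b1, Cyp4v3 and Cyp27a1, the mitochondrial sterol 27-hydroxylase, had log2 fold changes from -0.42 to 0.40, with overlapping groups in every case.

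**Figure D2:**
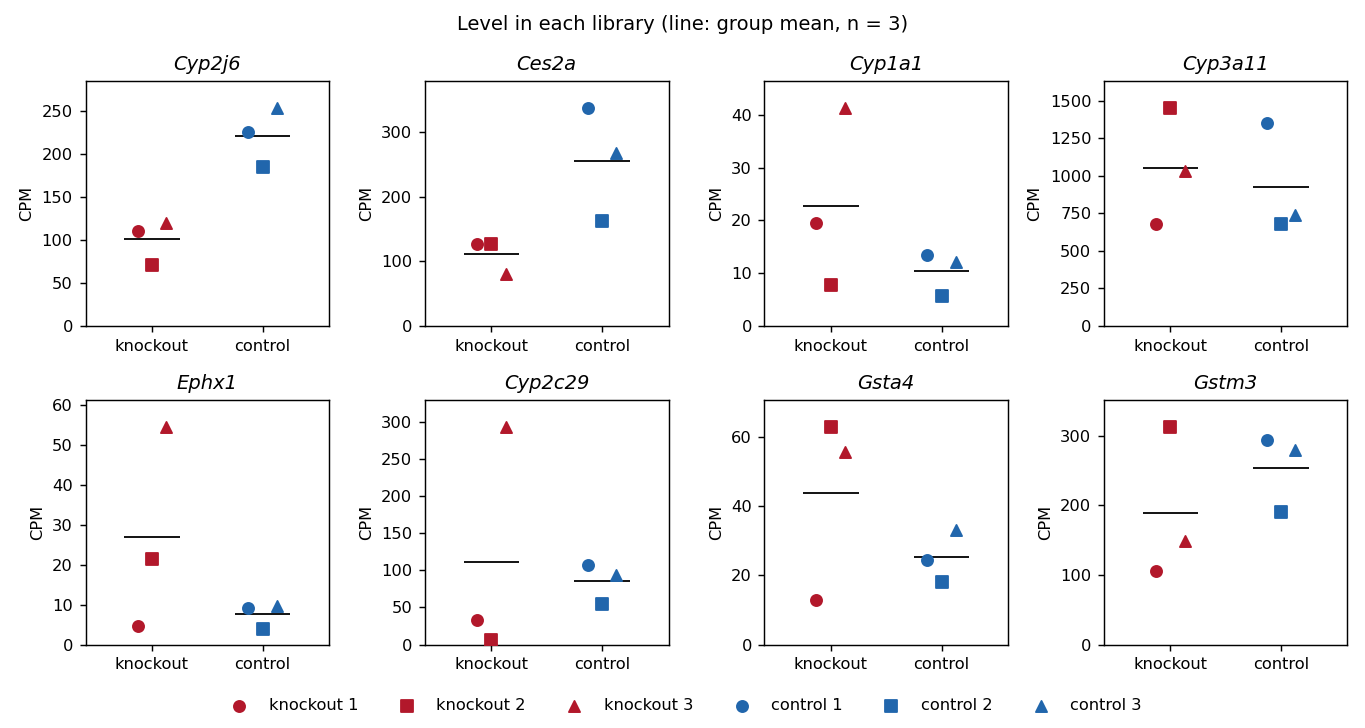
CPM (linear axis from 0, own scale in each panel) of 8 genes in each library, knockouts in red and controls in blue; symbols give the replicate number and lines the group mean (n = 3 each). Cyp2j6 and Ces2a have every knockout below every control, whereas Cyp2c29, Ephx1 and Gsta4 show knockouts both below and above the control mean.

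Among the hydrolases, Ces2a was low in every knockout. Ces2a is a carboxylesterase of the endoplasmic reticulum that cleaves ester drugs and acylglycerols. It had 128, 126 and 80.3 CPM in knockouts 1 to 3, against 337, 163 and 268 CPM in controls 1 to 3. The groups did not overlap, although control 2 came closest to the knockouts, and the means were 112 ± 27.1 CPM in knockouts and 256 ± 88.0 CPM in controls (SD, n = 3 each), a ratio of 0.436. The change of -1.20 on the log2 scale (SE 0.30) had an unadjusted p of 0.00463 and an adjusted p of 0.148 by edgeR, so it did not pass. DESeq2's Wald test gave an adjusted p of 0.00398, edgeR without a filter gave 0.0497, and edgeR without knockout 1 gave 0.0330. Over the 14 alternative fits its log2 fold change stayed between -1.44 and -0.93. By Xist and Ddx3y, the male knockout 1 had 128 CPM against 337 and 163 CPM in the male controls 1 and 2, and the female knockouts 2 and 3 had 126 and 80.3 CPM against 268 CPM in the female control 3. Of its 50-base words 17.3% occur in other genes, most in Gm7208.

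Values of the other carboxylesterases among the 41 genes overlapped between the genotypes. Ces2e, the most abundant hydrolase, had 756, 913 and 1138 CPM in knockouts and 1261, 976 and 1029 CPM in controls (log2 fold change -0.22, SE 0.19, 95% interval -0.67 to 0.23), with overlapping groups. Ces2c had 285, 264 and 297 CPM in knockouts and 374, 244 and 311 CPM in controls (log2 fold change -0.14, SE 0.17). Ces1f ran from 60.8 to 269.8 CPM in knockouts and from 62.3 to 131 CPM in controls, with knockouts 2 and 3 above every control and knockout 1 below every control. For Ces1f the log2 fold change was 0.69 (SE 0.52), and 1.09 (SE 0.31, adjusted p 0.0528 by edgeR) without knockout 1. In the 8 alternatives that kept all libraries, that of Ces1f fell as low as 0.08. The difference between Ces2a and these genes was not tested.

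Ephx1, the microsomal epoxide hydrolase that turns epoxides made by P450s into diols, had the highest fold change of the 41 genes. It had 4.55, 21.4 and 54.6 CPM in knockouts 1 to 3, against 9.15, 3.96 and 9.54 CPM in controls. Knockouts 2 and 3 lay above every control and knockout 1 lay among them. The change of 1.83 on the log2 scale (SE 0.79) had an unadjusted p of 0.0531 and an adjusted p of 0.311 by edgeR. Without knockout 1 it was 2.33 (SE 0.46, adjusted p 0.0160 by edgeR). In the 8 alternatives that kept all libraries, the change of Ephx1 fell as low as 0.80. Ephx2, the soluble epoxide hydrolase, ran from 355 to 471 CPM in knockouts and from 378 to 457 CPM in controls, with a log2 fold change of 0.03 (SE 0.15). Nqo1, the quinone reductase that NRF2 induces, ran from 13.4 to 35.7 CPM in knockouts and from 16.1 to 24.9 CPM in controls.

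All 8 glutathione transferase genes had their lowest value of the 6 libraries in knockout 1. Gstm3, the most abundant of them by mean CPM, had 106, 313 and 149 CPM in knockouts 1 to 3, against 294, 190.0 and 279 CPM in controls. Knockout 2 lay above every control, knockouts 1 and 3 lay below every control, and the log2 fold change was -0.43 (SE 0.39), and -0.14 without knockout 1. Gsta4, which conjugates the lipid peroxidation product 4-hydroxynonenal, had 13, 63.1 and 55.8 CPM in knockouts and 24.5, 18.0 and 33.2 CPM in controls. For Gsta4 the log2 fold change was 0.80 (SE 0.53), and 1.23 (SE 0.23, adjusted p 0.0125 by edgeR) without knockout 1. In the 8 alternatives that kept all libraries, that of Gsta4 fell as low as 0.09. Mgst1, a membrane-bound glutathione transferase and peroxidase, had 43.6, 163 and 148 CPM in knockouts and 121, 106 and 115 CPM in controls. Its log2 fold change of 0.05 (SE 0.43) became 0.44 (SE 0.10, adjusted p 0.0241 by edgeR) without knockout 1 and -0.23 without knockout 2. Gsta1, Gstm1, Gstp1, Gstk1 and Mgst2 had log2 fold changes from -0.16 to 0.37. For Gsta1 90.5% of the 50-base words also occur in other genes, so its counts cannot be ascribed to it alone, and the share was 33.7% for Gstp1 and 28.8% for Gstm3.

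The genes that attach glucuronic acid or sulfate were likewise lowest in knockout 1, all 4 of them. Ugt2b34, the most abundant glucuronosyltransferase of the set, had 516, 895 and 1040.3 CPM in knockouts 1 to 3, against 879, 745 and 801 CPM in controls. Knockouts 2 and 3 lay above every control and knockout 1 below, and the log2 fold change was 0.02 (SE 0.25), and 0.26 without knockout 1. Sult1b1, a sulfotransferase that acts on thyroid hormone and phenols, ran from 278 to 356 CPM in knockouts and from 309.9 to 348 CPM in controls (log2 fold change -0.04, 95% interval -0.35 to 0.27), the narrowest interval of the 41 genes. Sult1d1 ran from 141 to 339 CPM in knockouts and from 257 to 307 CPM in controls. Ugt2b5 was scarce, at 3.24, 4.88 and 31.2 CPM in knockouts and 11.6, 8.50 and 17.6 CPM in controls, and 41.7% of its 50-base words occur in other genes.

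The apical efflux pumps overlapped between genotypes. Abcc2 (MRP2), which exports glutathione and glucuronide conjugates, had 769, 601 and 608 CPM in knockouts 1 to 3, against 1090.4, 601 and 742 CPM in controls (log2 fold change -0.30, SE 0.24). Abcg2 (BCRP), which exports sulfate conjugates and many drugs, had 166, 237 and 329 CPM in knockouts, against 213, 170.1 and 169 CPM in controls. Its log2 fold change was 0.40 (SE 0.25), and 0.62 (SE 0.17, adjusted p 0.0456 by edgeR) without knockout 1. For Abcg2 the 14 alternative fits ran from 0.15 to 0.62. Abcb1a (P-glycoprotein) ran from 233 to 577 CPM in knockouts and from 291 to 504 CPM in controls (log2 fold change -0.12, SE 0.35).

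The 3 receptors varied little among the controls, with an SD of log2 CPM of 0.27 (Nr1i2), 0.39 (Nr1i3) and 0.29 (Ahr) among knockouts and 0.07, 0.08 and 0.06 among controls. Knockout 1 lay above every control for each of them. Nr1i2 (PXR), which binds many drugs and bile acids, had 96.9, 79.3 and 67.1 CPM in knockouts 1 to 3, against 87.9, 79.7 and 82.5 CPM in controls. Its log2 fold change was -0.04 (SE 0.15, 95% interval -0.38 to 0.30). Ahr, the aryl hydrocarbon receptor, had 25.6, 17.2 and 20.7 CPM in knockouts, against 23.5, 23.7 and 25.4 CPM in controls, with knockouts 2 and 3 below every control and knockout 1 just above (log2 fold change -0.19, SE 0.16, and -0.35 without knockout 1). Nr1i3 (CAR) had 62.8, 36.7 and 43.5 CPM in knockouts and 58.1, 53.2 and 58.7 CPM in controls, in the same arrangement, with a log2 fold change of -0.25 (SE 0.20). Without knockout 1 that of Nr1i3 was -0.50 (SE 0.11, adjusted p 0.0217 by edgeR). For Nr1i3 the 14 alternative fits ran from -0.50 to -0.08. Of the exonic bases of Nr1i3, 74.9% (3304 bases) are also exonic in Tomm40l on the opposite strand, and no source used here says whether strand was used in counting. Without strand, reads from the 2 genes cannot be told apart.

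The arrangement of the libraries was shared across much of the chain. Knockout 1 was the lowest of the 6 libraries for 25 of 41 genes (61.0%, against 27% of the genes of comparable abundance) and lay below every control for 30 (73.2%, against 40.8%). Knockout 2 lay below every control for 13 genes (31.7%, against 40.1% of the genes of comparable abundance) and above every control for 17 (41.5%, against 35.9%). Knockout 3 lay below every control for 9 (22.0%, against 36.5%) and above every control for 16 (39.0%, against 33.9%). The median log2 difference from the control mean was -0.51 in knockout 1, 0.03 in knockout 2 and 0.09 in knockout 3. The controls also had an order: control 1 was the highest control for 27 genes (65.9%, against 37.0%) and control 2 the lowest control for 29 (70.7%, against 33.5% of the genes of comparable abundance).

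**Figure D3:**
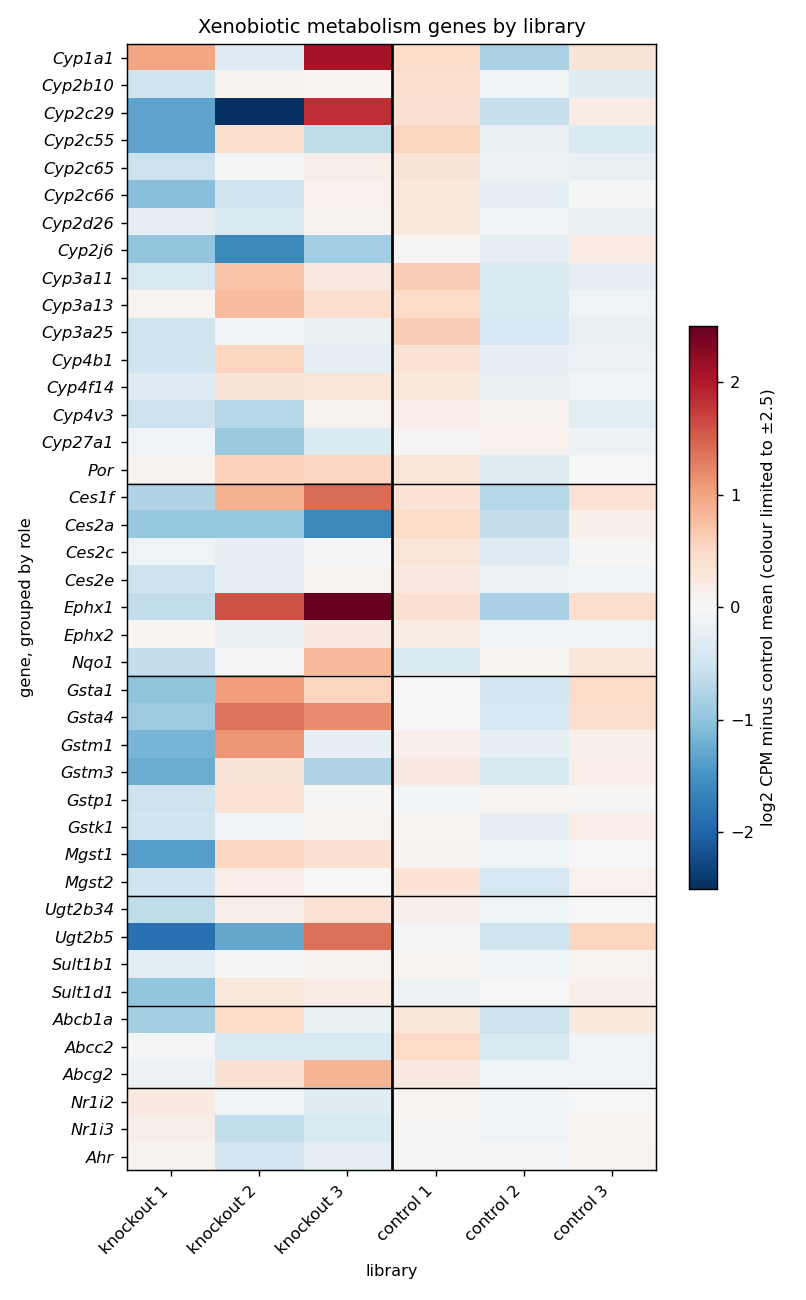
Log2 CPM minus the control mean (colour, limited to 2.5 in either direction) of each of the 41 genes (rows, by role) in each library (columns, knockouts left of controls). Knockout 1 is blue for most enzymes and not for the receptors, while Cyp2j6 and Ces2a are blue in all 3 knockouts.

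Variation was wide in these genes in both genotypes. The median SD of log2 CPM was 0.42 among knockouts and 0.30 among controls, against 0.20 and 0.12 for the 7335 genes of comparable abundance. The SD was larger among knockouts for 33 of 41 genes (80.5%, against 71.2%). A range of at least 3-fold between the highest and lowest library was found among knockouts for 10 genes, of which Cyp2c29 (43.5-fold), Ephx1 (12.0-fold), Ugt2b5 (9.62-fold) and Cyp1a1 (5.32-fold) had the widest. It was found among controls for 0 genes, where the widest range was 2.41-fold. The share of all genes tested with such a range was not counted, so these counts do not set the 41 genes apart from others. With 3 animals in each group, such widths are descriptions of these libraries.

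The mean log2 CPM over all 41 genes was 6.59, 7.11 and 7.37 in knockouts 1 to 3, against 7.35, 6.87 and 7.18 in controls 1 to 3. The means were 7.03 ± 0.40 in knockouts and 7.13 ± 0.24 in controls (SD, n = 3 each), a difference of -0.10 that was smaller than the SD of either group. By role, the difference of mean log2 CPM was -0.17 for the P450s with Por, 0.06 for the hydrolases, -0.05 for the glutathione transferases, -0.22 for the glucuronosyl and sulfo transferases, -0.03 for the pumps and -0.18 for the receptors. Without knockout 1 the difference over all 41 genes was 0.11. By role it was then -0.04 for the P450s with Por, 0.33 for the hydrolases, 0.37 for the glutathione transferases, 0.15 for the glucuronosyl and sulfo transferases, 0.13 for the pumps and -0.35 for the receptors. In knockout 1 alone, the glutathione transferases lay 0.90 and the glucuronosyl and sulfo transferases 0.94 below the control mean on the log2 scale, against 0.15 above it for the receptors. Summed over the 41 genes, the level was 8915, 13062 and 12968 CPM in knockouts, against 14478, 10008 and 11250 CPM in controls.

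**Figure D4:**
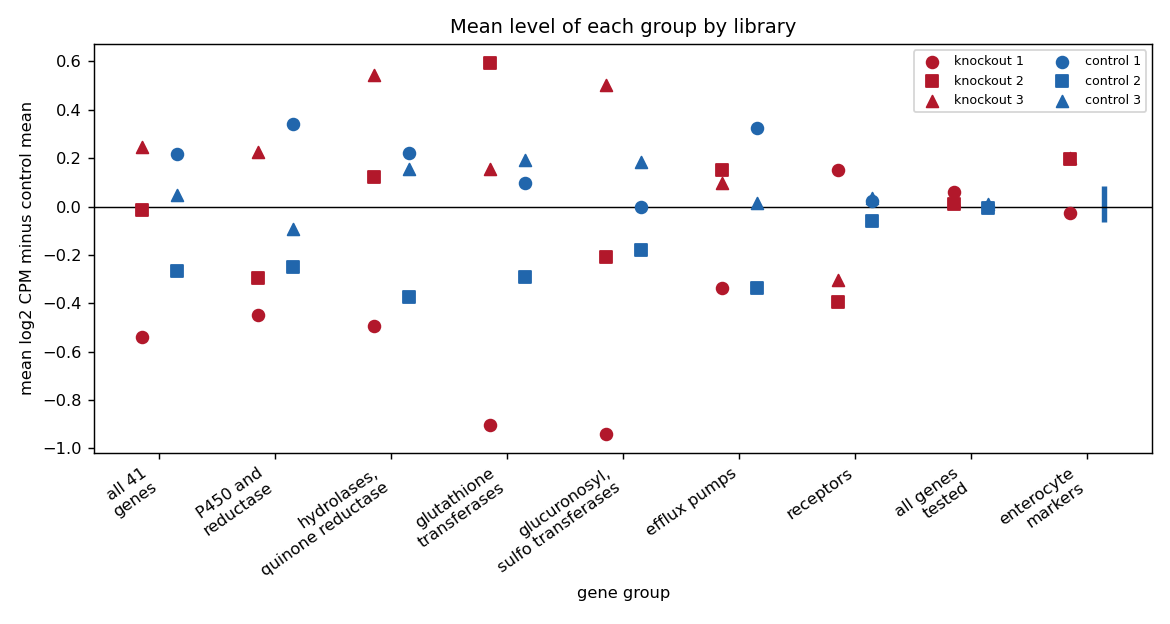
Mean log2 CPM of each group of genes minus its control mean in each library, knockouts in red and controls in blue; the blue bar at the enterocyte markers is the range of the 3 controls. Knockout 1 is the lowest library for all 41 genes together (-0.54) and for the transferases, and the highest for the receptors (0.15).

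Other measures moved with the libraries. All 15 enterocyte markers were tested, and their mean log2 level in knockouts 1 to 3 was -0.03, 0.20 and 0.20 relative to the control mean, with controls from -0.06 to 0.08. Their summed level was 43073 to 49524 CPM in knockouts and 39882 to 47226 CPM in controls. Of 9 markers of the ileum 8 were tested, and their level was -0.50, 0.48 and 0.78 in knockouts 1 to 3, with controls from -0.44 to 0.31. All 10 markers of the proximal intestine were tested, at 0.11, 0.30 and 0.50 in knockouts 1 to 3, with controls from -0.09 to 0.12. They summed to 15454, 10413 and 13233 CPM in knockouts 1 to 3, against 10758 to 15463 CPM in controls. Of these markers, Cybrd1 had 5.21, 223 and 127 CPM in knockouts 1 to 3, against 1.72 to 3.93 CPM in controls. Apoa4 had 10643, 5893 and 7904 CPM in knockouts 1 to 3, against 5177 to 8958 CPM in controls. By mean log2 level, each of these lists had the same order over knockouts as the mean of the 41 genes. By sum the order differed for the proximal markers, highest in knockout 1, and the enterocyte markers, highest in knockout 2. The ileum markers summed to 516 to 1883 CPM in knockouts and to 635, 889 and 929 CPM in controls 1 to 3. Control 1, lowest in that sum, had the highest control mean of the 41 genes. Smooth muscle markers, 5 of 8 tested, summed to 12.3 to 78.8 CPM in knockouts and 12.4 to 15.8 CPM in controls, and 8 pancreas markers, 1 of them tested, summed to 5.62 to 236 CPM in knockouts and 3.73 to 5.12 CPM in controls, highest in knockout 3. A set of 8 mitochondrial, ribosomal and nuclear RNAs, read as a sign of RNA quality, summed to 79277 to 90498 CPM in knockouts and 40846 to 62957 CPM in controls. Gm26917, the largest, had 40017 to 55553 CPM in knockouts and 16384 to 24254 CPM in controls. Gm42418 was also above every control in every knockout, and the other RNAs of the set overlapped. The mean log2 level of the set overlapped too, at 0.38, -0.11 and 0.29 in knockouts 1 to 3, with controls from -0.47 to 0.41. T cell markers, all 11 tested, summed to 384 to 927 CPM in knockouts and 190 to 325 CPM in controls. Paneth cell markers, all 9 tested, summed to 796 to 1465 CPM in knockouts and 1682 to 6063 CPM in controls, so every knockout sum lay below every control sum. Gene by gene this held for 3 of the 9, and the others overlapped. Tuft cell markers, 9 of 10 tested, summed to 273, 22.3 and 34.7 CPM in knockouts 1 to 3 and to 262 to 326 CPM in controls, with knockout 1 among the controls. Crypt stem and cycling markers, all 10 tested, had mean log2 levels of -0.61, 0.47 and 0.22 in knockouts 1 to 3 relative to the control mean. Their controls ran from -0.40 to 0.57, with the highest control sum in control 2 (814 CPM). Goblet cell markers, all 8 tested, were at -0.14, -0.50 and -0.79 in knockouts 1 to 3, with controls from -0.19 to 0.13. Enteroendocrine markers, all 10 tested, summed to 369 to 491 CPM in knockouts and 255 to 310 CPM in controls. B and plasma cell markers, 7 of 8 tested, summed to 148 to 325 CPM in knockouts and 30.1 to 130.3 CPM in controls. Macrophage and dendritic cell markers, 8 of 10 tested, had levels of 1.92, 0.56 and 1.12 in knockouts 1 to 3, with controls from -0.51 to 0.59. Fibroblast and endothelium markers, 7 of 10 tested, were at 2.49, 0.04 and 1.61, with controls from -0.54 to 0.95. Of 10 liver markers, Fgb, Fga, Ahsg and Cyp7a1 had 0 counts in every library, and Alb had 0 to 4 counts in any. Cps1, on the same list, had 264, 918 and 793 CPM in knockouts 1 to 3 and 442, 646 and 671 CPM in controls 1 to 3. With it the 10 markers summed to 266 to 920 CPM in knockouts and 443 to 674 CPM in controls. The part of segment, cell makeup, RNA quality and sex in the values above was not tested, and in bulk RNA fewer cells of a type and less RNA per cell cannot be told apart.

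The rest of the pathway was read from lists that hold 219 other genes, of which 143 were tested. By edgeR, 0 of the 143 passed an adjusted p of 0.05. At an unadjusted p under 0.05, 14 were higher in knockouts (9.79%, against 9.32% of all genes tested) and 32 were lower (22.4%, against 7.09%). Values of all 3 knockouts lay below all 3 controls for 39 (27.3%, against 11.7%) and above them for 9 (6.29%, against 10.0%). The median log2 fold change of the 143 was -0.16. With the replicate block, 12 were higher and 38 were lower at that level. DESeq2's Wald test called 26 of 190 such genes, 17 of them lower. Of all genes with an adjusted p it called 5.25% in either direction and 1.88% as lower. The 190 were counted whether or not they had an adjusted p, so the bases of these shares differ.

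By list, the other hydrolases and oxidoreductases had 15 of 42 genes lower and 5 higher at an unadjusted p under 0.05. These were 35.7% and 11.9%, against 7.09% and 9.32% of all genes tested, and the median log2 fold change of the list was -0.43. Maob, a mitochondrial monoamine oxidase, had 44.7, 58.1 and 50.6 CPM in knockouts 1 to 3, against 115, 141 and 190.2 CPM in controls (log2 fold change -1.54, SE 0.20, adjusted p 0.0719 by edgeR). Bche, the butyrylcholinesterase that also cleaves ester drugs, had 136, 77.6 and 133 CPM in knockouts, against 280.0, 249 and 292 CPM in controls (log2 fold change -1.25, SE 0.22, adjusted p 0.101 by edgeR). In both genes every knockout lay below every control. Fmo4, a flavin monooxygenase, had a log2 fold change of -0.73 (SE 0.15). Of the higher genes, Akr1b8 had 3.74, 31.2 and 14.1 CPM in knockouts, against 1.32, 1.58 and 0.712 CPM in controls (log2 fold change 3.76, SE 0.76). Xdh had 1292, 1357 and 1659 CPM in knockouts, against 1011, 888 and 908 CPM in controls (log2 fold change 0.62, SE 0.15). Every knockout lay above every control for 5 genes of this list, these 2 among them, and below every control for 18.

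Of 17 other P450s tested, 3 were lower and 0 were higher at that level, where 7.09% of all genes tested were lower and 9.32% higher. The 3 were Cyp2u1 (log2 fold change -1.59, SE 0.40), Cyp2s1 (-0.42, SE 0.09) and Cyp2j9 (-1.60, SE 0.50). In all 3 every knockout lay below every control, as in 11.7% of all genes tested. Cyp2j9, of the same family as Cyp2j6 and named after its values were seen, had 2.88, 0.566 and 2.32 CPM in knockouts, against 6.07, 5.54 and 5.82 CPM in controls. Cyp2u1, a fatty acid hydroxylase, had 54.5, 16.7 and 27.6 CPM in knockouts, against 79.0, 105 and 112 CPM in controls. Of the cytochrome b5 genes on the same list, Cyb5r3, the cytochrome b5 reductase, was also lower at that level (log2 fold change -0.55, SE 0.16). The other conjugating enzymes had 7 of 37 lower (18.9%, against 7.09% of all genes tested), with Gstm2 (-1.30, SE 0.38) and Gstm6 (-0.47, SE 0.13) among them. Another 2 were higher (5.41%, against 9.32%). Of these, Gsta3 had 4.05, 13.8 and 12.7 CPM in knockouts, against 2.82, 2.04 and 2.43 CPM in controls (log2 fold change 2.07, SE 0.45).

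The other drug transporters had 5 of 15 higher and 2 lower at that level (33.3% and 13.3%, against 9.32% and 7.09% of all genes tested). Abcc4 (MRP4) had 3.59, 12.5 and 7.69 CPM in knockouts, against 1.89, 1.92 and 1.72 CPM in controls (log2 fold change 2.11, SE 0.44, adjusted p 0.118 by edgeR). Abcc3 (MRP3), a basolateral exporter of glucuronides, had 127, 328 and 389.7 CPM in knockouts, against 155, 104 and 131 CPM in controls (log2 fold change 1.12, SE 0.39). Abcc1 (MRP1) had a log2 fold change of 1.55 (SE 0.46). The knockouts lay above every control for Abcc4 and overlapped the controls for Abcc3 and Abcc1.

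Of 16 other receptors and partner factors, 1 was higher and 3 were lower at an unadjusted p under 0.05 (6.25% and 18.75%, against 9.32% and 7.09% of all genes tested). Arnt2, a relative of the AhR partner Arnt, had 15.6, 24.3 and 16.7 CPM in knockouts, against 7.30, 5.42 and 5.40 CPM in controls (log2 fold change 1.64, SE 0.23, adjusted p 0.0719 by edgeR). Ppara, the fatty acid receptor, and Hnf4g, an enterocyte transcription factor, had log2 fold changes of -0.60 (SE 0.12) and -0.66 (SE 0.16), each with every knockout below every control. Of 26 NRF2 target genes 4 were higher (15.4%, against 9.32% of all genes tested) and 1 was lower (3.85%, against 7.09%). The lower gene was Gclm (log2 fold change -0.24, SE 0.10), and the NRF2 list holds 7 of the 41 genes described above. Gsta3 (log2 fold change 2.07, SE 0.45) and Abcc3 (1.12, SE 0.39) were among the 4 higher NRF2 targets. On that list every knockout lay above every control for 3 genes and below every control for 3. Of 18 tested PXR and CAR target genes, on a list of 19 that holds 14 of the 41, 1, Abcc3, was higher and 2 were lower, Ces2a and Aldh1a1 (5.56% and 11.1%, against 9.32% and 7.09% of all genes tested). Aldh1a1, a retinaldehyde dehydrogenase, had a log2 fold change of -1.10 (SE 0.23) and 77.6, 138 and 122 CPM in knockouts, against 238, 199.7 and 286 CPM in controls.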

How the data were processed

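RNA-seq of small-intestinal epithelium was analysed in 3 knockout and 3 control libraries. The deposited table holds the authors' read counts, whole numbers for each gene. Per the submitters' processing notes the tools were bcl2fastq 2.17, FastQC, Trim Galore and STAR 2.5.0a with mm10, and no source used here names the counting tool or its strand setting. The labels name both poly-A selection and an rRNA depletion kit. Of 54446 gene IDs, 53229 (97.8%) matched GENCODE M21 with the same coordinates, which gave lengths, exon overlaps and shared 50-base words.

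From these counts, filterByExpr (minimum count 10) kept 15068 genes. edgeR 4.0.16 in R 4.3.3 fitted genotype with TMM scaling and its quasi-likelihood F test, two-sided, with Benjamini-Hochberg adjustment over all genes tested and a threshold of 0.05. CPM (counts per 1e6) used the TMM-scaled total, and mean log2 levels used a prior count of 2. The fit was tested on simulated data first. The 41 genes, the pathway and marker lists and the alternatives were chosen with earlier results of these data known. Given in full were genes at an unadjusted p under 0.05 or with groups that did not overlap by at least 1.5-fold, the most abundant gene of each role, the receptors, Cyp1a1, Cyp3a11 and Por, and up to 3 genes per pathway list with a mean of at least 2 CPM. Cyp2c29, Cyp2c55, Cyp3a13, Ephx1, Ces1f, Gsta4, Mgst1, Abcg2, Ces2c, Ugt2b5, Akr1b8 and Xdh were named after their values were seen.

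Libraries with the same replicate number deviated from their group means with correlations of 0.117, 0.119 and 0.149, over the level taken as pairing, but deviations sum to 0 within a group and no label states a shared litter or day. The replicate block is therefore an alternative, whose counts are given beside the others. Alternatives were DESeq2 1.42.0 (Wald test, independent filtering), its size factors, library totals, no filter, 1 CPM in 3 libraries, the replicate block, sex as the series text or as Xist and Ddx3y give it, and leaving out each of the 6 libraries. No pair of libraries of a group differed by as little as sampling noise.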

Additional observations from a re-analysis of the deposited data

How the results depend on the processing

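Of the 41 genes, 20 kept 1 sign of the log2 fold change under all 14 alternatives and 21 changed sign under at least 1. Genes called among all tested, 9 in the fit as reported, were 849 with DESeq2's Wald test, 16 with library totals, 284 with no filter, 4 with sex from the series text, 0 with the replicate block, and 0 to 2700 when 1 library was left out, the highest without knockout 1. Xenobiotic genes called, 0 as reported, were 2 with DESeq2's Wald test, 2 with no filter, and 0 to 7 when 1 library was left out, 7 without knockout 1. At an unadjusted p under 0.05, 2 as reported (against 16.4% of all genes), they were 4 of 41 with no filter (against 12.4%). They were 3 each with DESeq2's Wald test (against 10.4%), the replicate block (16.6%) and sex from the series text (16.0%), with Cyp1a1 added in each. When 1 library was left out they were 2 to 12, 12 without knockout 1 (29.3% of the 41, against 33.8% of all genes tested in that fit). Of the other pathway genes, 0 as reported, 26 were called with DESeq2's Wald test, 1 with library totals, 9 with no filter, 1 with sex by Xist and Ddx3y, and 0 to 35 when 1 library was left out, 35 without knockout 1. With the replicate block 0 of the 41 genes and 0 of the other pathway genes were called, as in the fit without it.

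Relative to the fit as reported, the sign changed for 5 of the 41 genes with library totals, 2 with no filter, 5 with the replicate block, 3 with sex from the series text, 8 with sex by Xist and Ddx3y, and 2 to 8 when 1 library was left out. Among 21 of the genes, followed in every alternative, the log2 fold change reversed for Cyp2c29 with the replicate block (-1.11), with sex from the series text (-0.36) and sex by Xist and Ddx3y (-0.30), and ran from -2.10 to 0.96 when 1 library was left out. With library totals, which shifted the median of all genes by -0.11, the log2 fold change reversed for Cyp4f14 (-0.0046), Mgst1 (-0.10) and Ugt2b34 (-0.11). With the block it reversed for Mgst1 (-0.14) and Ugt2b34 (-0.038), and with sex by Xist and Ddx3y for Mgst1 (-0.47), Ugt2b34 (-0.19) and Nr1i2 (0.019). Ephx2 and Ugt2b5 also reversed with library totals, and Cyp4b1 and Gstp1 with no filter. Gstm1 and Ugt2b5 reversed with the block and with sex from the series text. Nqo1, Gsta1, Gstm1 and Ugt2b5 reversed with sex by Xist and Ddx3y. Leaving out 1 library gave ranges that crossed 0 for Cyp2c29, Cyp3a11 (-0.10 to 0.59), Mgst1 (-0.23 to 0.44), Ugt2b34 (-0.18 to 0.26) and Nr1i2 (-0.19 to 0.094). They also crossed 0 for Cyp2b10, Cyp2c65, Cyp3a25, Cyp4b1, Ces2c, Ephx2, Nqo1, Gsta1, Gstm1, Gstp1, Mgst2, Ugt2b5, Sult1b1, Sult1d1 and Abcb1a. The cause of these changes was not tested. More depth would narrow counting error only: at a mean of 98.2 CPM, Cyp2c29 had an SE of 1.10.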
